A study of Mus musculus with 11 samples.

Results

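The comparison described here set the 7 cortical libraries of mice carrying Ng2-Cre, from both conditional knockouts together, against the 4 libraries of mice without Cre, across the 14330 of 16228 genes that reached a value of 1 in 3 or more of the 11 libraries. It asks which genes moved alike in both knockouts. The 7 libraries are 4 of the genotype Ng2 Cre+ Prkci f/f (Prkci cKO) and 3 of the genotype Ng2-Cre+ Prkcz f/f (Prkcz cKO), which lose one or the other of the atypical protein kinase C paralogs. Of the controls, the genotype label was Pkcz f/+ for replicates 1 and 2 and Pkcz f/f for 3 and 4. All mice were untreated and were taken at postnatal day 30, and each library is bulk RNA from a 4 mm punch of cerebral cortex of a separate animal. Every knockout library carries Cre and no control does, and neither a control of the Prkci line nor one with Cre and no floxed gene was among the samples, so the effect of Cre, of the line and of losing a kinase cannot be told apart. Both knockouts carry Ng2-Cre, a Cre recombinase under regulatory elements of Cspg4, the gene of the NG2 proteoglycan.

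Oligodendrocytes arise from precursor cells that carry NG2, pass through a committed, newly formed stage marked by genes such as Gpr17 and Bcas1, and then make the lipid-rich myelin sheaths of axons. NG2 is also carried by pericytes, the mural cells of capillaries. Immediate early genes, such as Fos and Arc, are transcribed within minutes of a stimulus, in neurons above all after synaptic activity. Values below are normalised expression as the authors deposited it, given per library or as mean ± SD. Changes are limma coefficients on log2(value + 0.5), knockouts minus controls, with their standard error (SE) and a p-value adjusted over all genes tested. A gene was called at an adjusted p under 0.05.

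The change common to the knockouts was mostly a decrease. Of the genes tested, 188 (1.31%) were called, 181 of them lower in the knockouts (1.26%) and 7 higher (0.0488%). Among those higher, Odf3l1 and the gene model LOC100862177 reached a value of 1 in knockout libraries alone, which fixed their direction. The median log2 change over all genes was -0.00 and 51.0% of genes lay below 0, so the imbalance was in the called genes and not in the table as a whole. The genes called lower had a median log2 change of -0.55. In 161 of the 181 every knockout library was below every control library, a separation that 2.07% of all genes tested showed. The genes were called on these same values, so their separation largely follows from the call. In 6 of the 7 genes called higher every knockout library was above every control, as in 0.837% of all genes, and 2.9% separated in either direction. Of the 181, 59 were among the 163 tested genes of the lists for the oligodendrocyte lineage and for galactolipid enzymes, 18 were among the 64 tested genes of the activity lists, none was in both, and 98 were in no list. The call counts depended on single libraries of controls and knockouts. They were 91 without control replicate 1, 119 without control replicate 2, 126 without Prkci cKO replicate 2 and 131 without Prkcz cKO replicate 2. Without Prkcz cKO replicate 3 the count was 279. With the 2 Pkcz f/f controls as the only controls, a fit with fewer libraries, 45 genes (0.314%) were called, 35 of them lower. With the replicate number as a block, 139 (0.97%) were called.

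**Figure D1:**
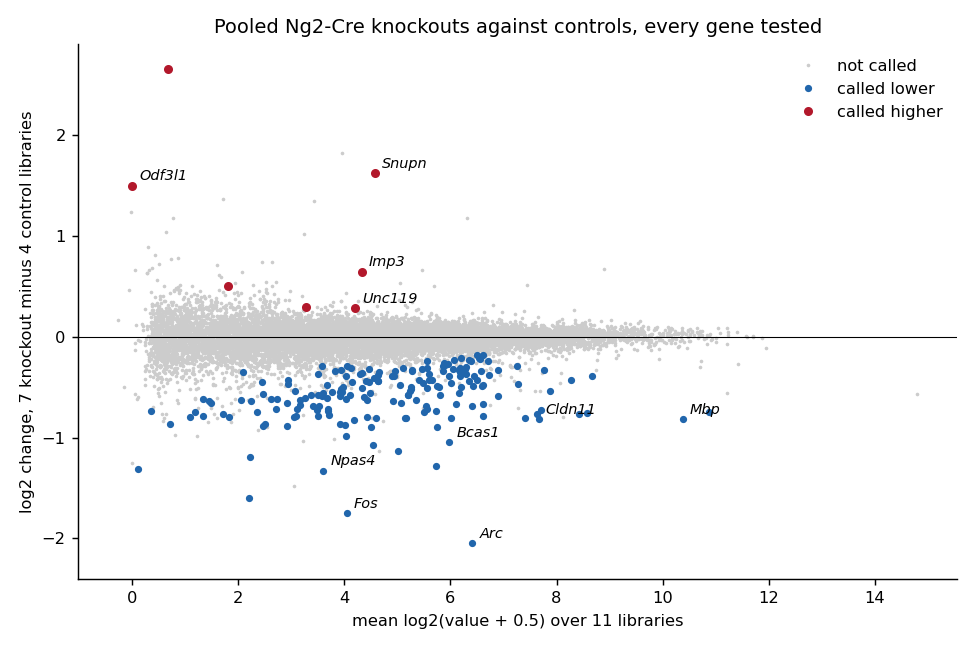
Log2 change of the 7 knockout libraries against the 4 controls (vertical axis) for each of the 14330 genes tested, against the mean log2 level over the 11 libraries (horizontal axis). Blue points are the 181 genes called lower and red points the 7 called higher; Arc has the lowest point at -2.05 and Snupn stands at 1.62.

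The libraries were similar in scale and marker levels. Column sums ran from 1021767 to 1082562, and effective depth, read from the steps between low values on the assumption of a scale close to CPM, was 14810000 reads in Prkcz cKO replicate 3 and 20620000 to 28170000 in the others. Markers of cortical excitatory neurons were high throughout, with Slc17a7 between 1968 and 2224. Markers from outside the cortex varied more: Drd2, a dopamine receptor of the striatum, ran from 1.16 to 25.6, and Ttr of the choroid plexus from 78.7 to 877. In bulk tissue, fewer cells of a type and less RNA per cell cannot be told apart.

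The targeted genes were checked first. Prkci was 85.28, 86.09, 89.02 and 90.69 in controls, 65.04, 68.25, 67.99 and 66.62 in Prkci cKO, and 91.49, 84.39 and 82.36 in Prkcz cKO. It was low in the Prkci cKO libraries alone, and the knockouts differed by -0.36 (SE 0.048, limma adjusted p = 0.0089), so its pooled change of -0.23 (adjusted p = 0.308) describes neither. Prkcz was 347.46, 323.94, 297.97 and 322.07 in controls, 323.76, 307.08, 312.66 and 314.49 in Prkci cKO, and 278.62, 262.39 and 292.47 in Prkcz cKO. It was lowest in Prkcz cKO, below every control, but neither its pooled change of -0.11 (adjusted p = 0.527) nor its difference between the knockouts of 0.18 (adjusted p = 0.176) was called. The floxed exons were not examined separately, and expression outside the recombined cells remains in each library.

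Of the 7 genes called higher, 3 lay beside Cspg4, the gene whose sequence drives Cre. Snupn, which encodes snurportin, an import adaptor for spliceosomal particles, was 10.94, 11.19, 11.71 and 10.85 in controls, 36.39, 33.99, 36.71 and 34.57 in Prkci cKO, and 35.32, 32.31 and 38.88 in Prkcz cKO. Both knockouts stood far above the controls and at the same height. The rise was 3.17-fold on the linear scale and 1.62 in log2 units (SE 0.055, limma adjusted p = 6.23e-10), and the 95% interval of the difference between the knockouts was -0.15 to 0.15. Snupn lies on chromosome 9 at 56950878 to 56983206 (GRCm38), on the same strand as Cspg4 at 56865033 to 56899870.

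Imp3, a component of the ribosome processing complex, sits between them at 56937475 to 56938398. It was 14.18, 13.19, 15.72 and 15.51 in controls, 22.33, 21.91, 20.67 and 23.21 in Prkci cKO, and 24.83, 24.45 and 24.79 in Prkcz cKO, again without overlap. It rose by 0.64 in log2 units (SE 0.067, limma adjusted p = 7.07e-04). Odf3l1, at 56848659 to 56864679 and nearly silent in control cortex, was 0.04, 0.04, 0.00 and 0.00 in controls and between 0.54 and 1.42 in the knockouts, a rise of 1.5 on the log2 scale with the pseudocount (SE 0.183, adjusted p = 0.002). All 3 genes were also called with the Pkcz f/f controls as the only controls.

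Within 500 kb of Cspg4, 3 of 14 tested neighbours were called, all higher, against 0.0488% of all genes. Odf3l1 passed the filter on low values (at least 1 in 3 libraries) through knockout libraries alone, so its direction was fixed by that filter; Snupn and Imp3 were above 1 in all 11 libraries. The change was not graded by position: Snx33, which lies between Cspg4 and Imp3, changed by -0.01 (adjusted p = 0.986), and Ptpn9, beyond Snupn, by 0.18 (adjusted p = 0.347). Cspg4 itself was 17.33, 17.45, 20.08 and 14.58 in controls, 21.88, 21.19, 23.20 and 24.81 in Prkci cKO, and 22.36, 23.88 and 18.22 in Prkcz cKO. Most knockout libraries exceeded the controls, but Prkcz cKO replicate 3 fell within their range, and the change of 0.35 was not called (SE 0.089, adjusted p = 0.0827). How much of the Cspg4 signal came from precursors and how much from pericytes was not tested.

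**Figure D2:**
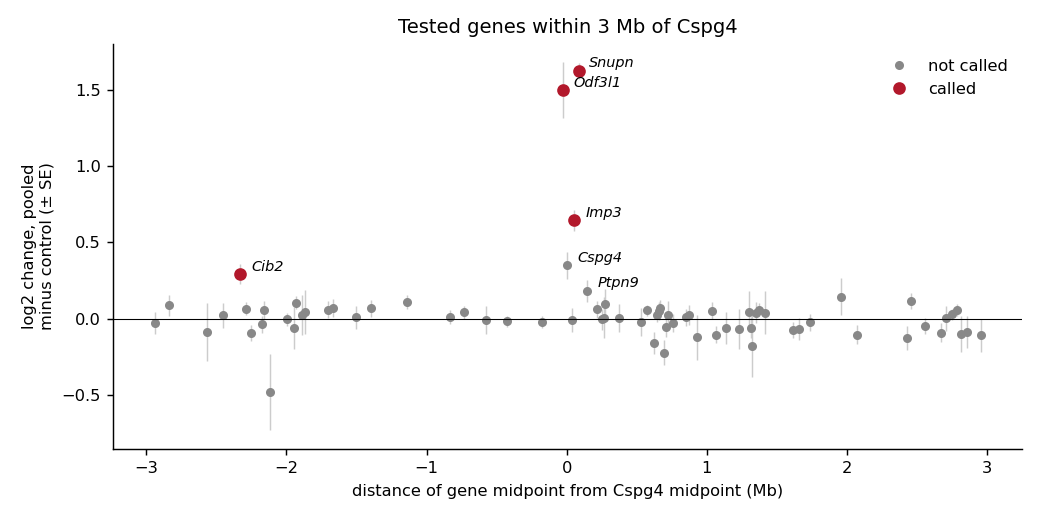
Log2 change (points, ± SE) of tested genes within 3 Mb of Cspg4 on chromosome 9, by distance of gene midpoints in Mb. Red points were called: Snupn (1.62), Odf3l1 (1.5) and Imp3 (0.64) cluster at the driver locus, with Cib2 (0.29) farther off, while Cspg4 (0.35) was not called and most others lie near 0.

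The other 4 genes called higher were Cib2, Unc119, Psg16 and a gene model with no symbol of its own. Cib2, a calcium-binding protein gene on chromosome 9 at 54544794 to 54560218 that overlaps Sh2d7 on the other strand, was 8.09 ± 0.275 (SD, n = 4) in controls and 10.02 ± 0.652 (SD, n = 7) in knockouts, a change of 0.29 (limma adjusted p = 0.0442). Unc119, a lipid-binding trafficking factor gene on chromosome 11, was 15.8 ± 1.28 (SD, n = 4) against 19.4 ± 0.988 (SD, n = 7), a change of 0.28 (limma adjusted p = 0.0356). Both calls were fragile: leaving out any of 9 libraries ended that of Cib2 (largest adjusted p 0.149, without control replicate 1), and leaving out any of 8 ended that of Unc119 (largest adjusted p 0.124, without control replicate 4). Psg16 rose by 0.50 (adjusted p = 0.0283) from 2.31 ± 0.248 (SD, n = 4) to 3.48 ± 0.401 (SD, n = 7). The unnamed model LOC100862177 was listed at 0 in all 4 controls and in Prkcz cKO replicate 2. It was listed at 2.42 to 5.24 in the other 6 knockout libraries (adjusted p = 0.0193), and no fold is given against controls listed at 0. Like Odf3l1, it passed the filter on low values through knockout libraries alone, so its direction was fixed by that filter.

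**Figure D3:**
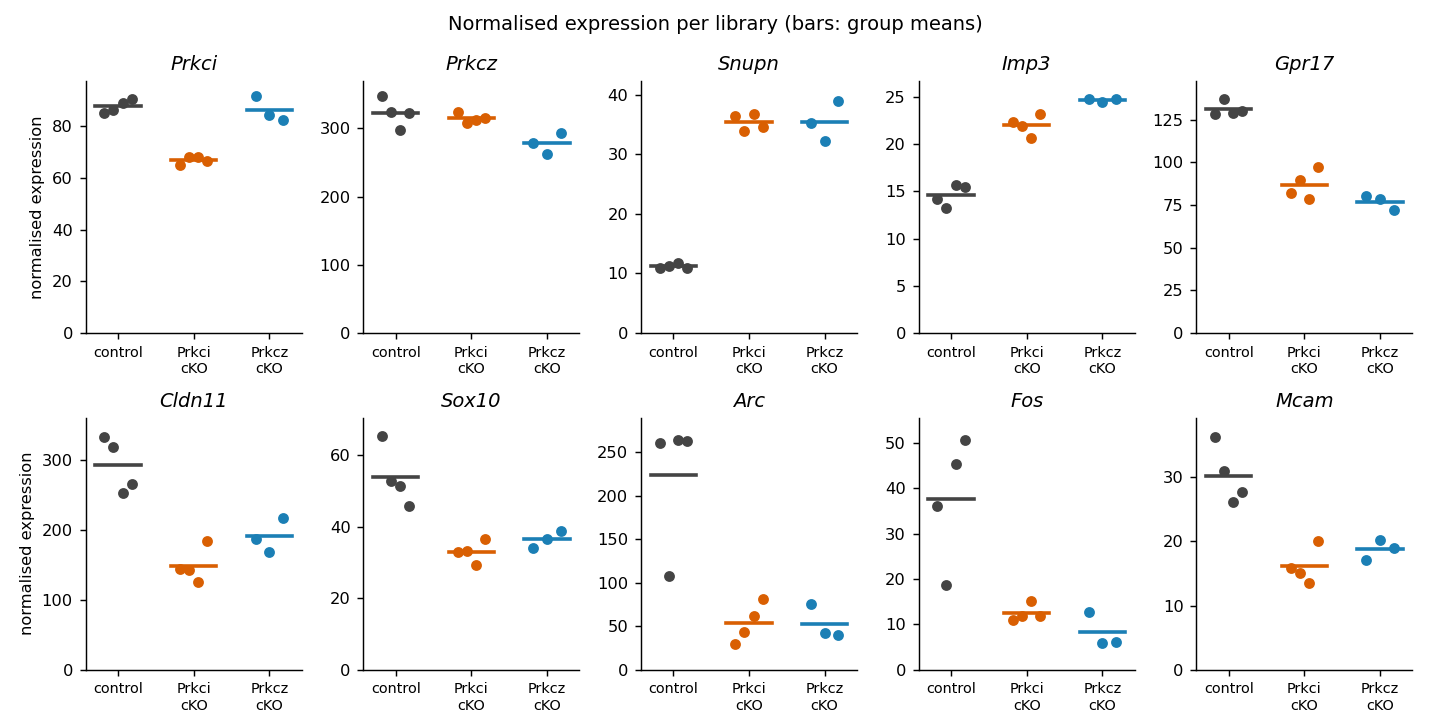
Normalised expression of 10 genes in each library (points, in replicate order) with group means (bars), from an axis that starts at 0. Prkci is low in Prkci cKO alone, Snupn and Imp3 are high in both knockouts, and Gpr17, Cldn11, Sox10, Arc, Fos and Mcam are below every control in both.

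Most structural genes of the myelin sheath were called lower. Of 20 structural myelin protein genes, 16 were called lower, 4 were not called and the median log2 change was -0.74. Cldn11, the tight junction protein between myelin layers, was 332.40, 317.85, 252.25 and 265.74 in controls, 143.15, 142.14, 125.61 and 183.24 in Prkci cKO, and 186.92, 168.74 and 216.07 in Prkcz cKO. Every knockout library lay below every control, and the change was -0.82 (SE 0.128, limma adjusted p = 0.00491). Mbp, myelin basic protein, which compacts the sheath, was 2772, 2097, 1370 and 1654 in controls, 1347, 943, 780 and 1406 in Prkci cKO, and 1184, 1066 and 968 in Prkcz cKO. Here the groups overlapped, since Prkci cKO replicate 4 exceeded control replicate 3, and the change was -0.82 with a larger error (SE 0.181, adjusted p = 0.0406).

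The Mbp call was lost when any of 7 libraries was left out, with the largest adjusted p of 0.146 without control replicate 1. The other members called included Ermn, a cytoskeletal protein of the sheath, at -0.90 (SE 0.122, limma adjusted p = 0.00255) and Mag, an adhesion protein facing the axon, at -0.81 (adjusted p = 0.00715). Gjc3, a connexin gene of oligodendrocytes, changed by -0.69 and was called. The 4 members not called were Gjb1 (-0.55, adjusted p = 0.0771), Cntn2 (-0.28, adjusted p = 0.0772), Pmp22 (-0.16, adjusted p = 0.473) and Omg (0.01, adjusted p = 0.965). The last of these, oligodendrocyte myelin glycoprotein, is also made by neurons.

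The size of the myelin decrease depended on which controls were used. On the mean log2 level of the 20 genes, set to 0 at the control mean, control replicates 1 and 2 (Pkcz f/+) stood at 0.22 and 0.07 and replicates 3 and 4 (Pkcz f/f) at -0.17 and -0.12. The knockout libraries ran from -0.96 to -0.40, all below. With the Pkcz f/f controls only, the median change was -0.52 and 0 of the 20 genes were called by limma, while 18 were lower at an unadjusted p under 0.05. The share of all genes passing that unadjusted p with those controls was not computed, for this list or those below. Without control replicate 1, 10 were called. With the score of striatal neuron genes as a covariate, 12 were called.

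Mature oligodendrocyte genes outside the structural list were also among those called. Of 39 tested, 17 were called lower and 0 higher, with a median of -0.49, and 38 lay below 0. Car2, carbonic anhydrase II, was 131.48, 129.29, 117.95 and 120.92 in controls, 102.23, 90.06, 88.50 and 102.54 in Prkci cKO, and 93.03, 96.44 and 96.72 in Prkcz cKO. The groups did not overlap, and the change was -0.38 (SE 0.050, limma adjusted p = 0.00208). Adamts4, a proteoglycan-cutting protease of mature oligodendrocytes, changed by -0.89 (SE 0.114, limma adjusted p = 0.00208) and Dock10, a guanine nucleotide exchange factor gene, by -0.58 (SE 0.077, adjusted p = 0.00235). Nipal4 was called at an adjusted p of 0.0405 that was lost without any one of 10 libraries (largest adjusted p 0.162, without control replicate 1). The count for the list fell to 7 without control replicate 1, to 8 without control replicate 2 and to 11 without Prkci cKO replicate 2, and 2 genes were called with the Pkcz f/f controls only.

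Among enzymes that make myelin lipids, the genes called sat at a few steps. Of 30 genes in the list for galactolipid, sphingolipid and very long chain synthesis, 6 were called lower and the median was -0.12. Ugt8a, which makes galactosylceramide, the characteristic myelin lipid, was 151.78, 150.29, 123.61 and 128.56 in controls, 79.43, 70.20, 63.45 and 92.33 in Prkci cKO, and 94.25, 77.64 and 87.78 in Prkcz cKO. No knockout library reached the lowest control, and the change was -0.78 (SE 0.101, limma adjusted p = 0.00208). Fa2h, which hydroxylates the fatty acid of that lipid, changed by -0.73 (adjusted p = 0.0187), and Lass2, the older symbol of the ceramide synthase gene Cers2, by -0.50 (adjusted p = 0.00527). Aspa, which frees acetate from N-acetylaspartate (-0.72), the glycolipid transfer protein gene Gltp (-0.54) and the elongase gene Elovl5 (-0.23) were the others called. Without control replicate 1, 3 of the 30 were called, and with the Pkcz f/f controls only, 0 by limma and 10 at an unadjusted p under 0.05. Of 25 sterol synthesis genes, Cyp51 was called (-0.24, adjusted p = 0.0346), a call lost without any one of 7 libraries (largest adjusted p 0.135, without control replicate 1), and the median was -0.08.

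Genes of the committed and newly formed stage all had a log2 change below 0. Of the 28, 11 were called lower, and the median was -0.43. Gpr17, a receptor gene of committed precursors, was 128.55, 137.46, 128.84 and 130.27 in controls, 82.30, 89.53, 78.65 and 97.39 in Prkci cKO, and 80.23, 78.43 and 72.07 in Prkcz cKO. The controls were tight at both Pkcz genotypes, and every knockout library lay well below them, by 37.0% on average, or -0.67 in log2 units (SE 0.067, limma adjusted p = 6e-04). Gpr17 overlaps Lims2 on the other strand, which was also called (-0.54). The sources used here do not say whether counting used strand, so overlapping genes are uncertain. With the Pkcz f/f controls only, Gpr17 changed by -0.65 (adjusted p = 0.0106) and was called, as was Cnksr3 (-0.56, adjusted p = 0.042).

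Bcas1, a marker of newly formed, myelinating cells, was 130.91, 106.69, 74.89 and 91.99 in controls, 61.84, 42.83, 39.32 and 64.67 in Prkci cKO, and 45.52, 45.64 and 40.64 in Prkcz cKO. It had the largest change of the list at -1.04 (SE 0.156, limma adjusted p = 0.00374), and its controls were spread as those of Mbp were. Other members called included Enpp6, a choline phosphodiesterase gene of newly forming oligodendrocytes (-0.72), the plexin gene Plxnb3 (-0.82) and Sirt2, a deacetylase gene of the lineage (-0.47). Without control replicate 1, 7 of the 28 were called, and with the Pkcz f/f controls only, 2.

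Of 25 precursor genes, 2 were called lower, Olig2 and Sema5a, beside 1.26% of all genes, and the median was -0.07. At an unadjusted p under 0.05, 10 of the 25 were lower and 3 higher, beside 1562 of the 14330 genes tested, and 19 lay below 0. Cspg4, the driver gene, is a member of this list and was among the 3 higher (0.35). The mean level of the list ran from -0.03 to 0.04 in controls, from -0.12 to -0.05 in Prkci cKO and from -0.20 to -0.08 in Prkcz cKO, without overlap with controls. Pdgfra, the growth factor receptor that defines precursors, was 78.3 ± 1.03 (SD, n = 4) in controls and 75.1 ± 5.38 (SD, n = 7) in knockouts, a change of -0.06 (limma adjusted p = 0.757). The difference between this list and the newly formed one was not tested, and the lists share Vcan and Neu4. Olig2, a transcription factor gene of the whole lineage, was 36.80, 32.01, 36.77 and 34.75 in controls, 22.58, 25.77, 27.78 and 29.39 in Prkci cKO, and 26.93, 27.32 and 26.62 in Prkcz cKO, with no overlap and a change of -0.39 (SE 0.066, limma adjusted p = 0.00715). The Sema5a call (-0.33, adjusted p = 0.0368) was lost without any one of 8 libraries, with the largest adjusted p of 0.136 without control replicate 1.

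Transcription factors that drive the lineage towards myelination were among the genes called. Of 28, 9 were called lower: Sox10, Olig1, Olig2, Nkx2-2, Nkx6-2, Gm98 (the older symbol of Myrf), Zfp488, Sox8 and St18. Sox10, needed for terminal differentiation, was 65.28, 52.88, 51.43 and 45.69 in controls, 32.81, 33.24, 29.31 and 36.52 in Prkci cKO, and 34.14, 36.46 and 38.81 in Prkcz cKO. The groups did not overlap, and the change was -0.63 (SE 0.089, limma adjusted p = 0.00303). Gm98, the myelin regulatory factor, was 63.0 ± 12.2 (SD, n = 4) in controls and 37.1 ± 5.05 (SD, n = 7) in knockouts, a change of -0.75 (SE 0.117, limma adjusted p = 0.00491). The list also holds factors of other stages and of other cells, such as Hes5 (0.26), which was not called, and its median was -0.14. With the Pkcz f/f controls only, 0 of the 28 were called by limma (9 lower at an unadjusted p under 0.05), Sox10 having a change of -0.49 (adjusted p = 0.0521).

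**Figure D4:**
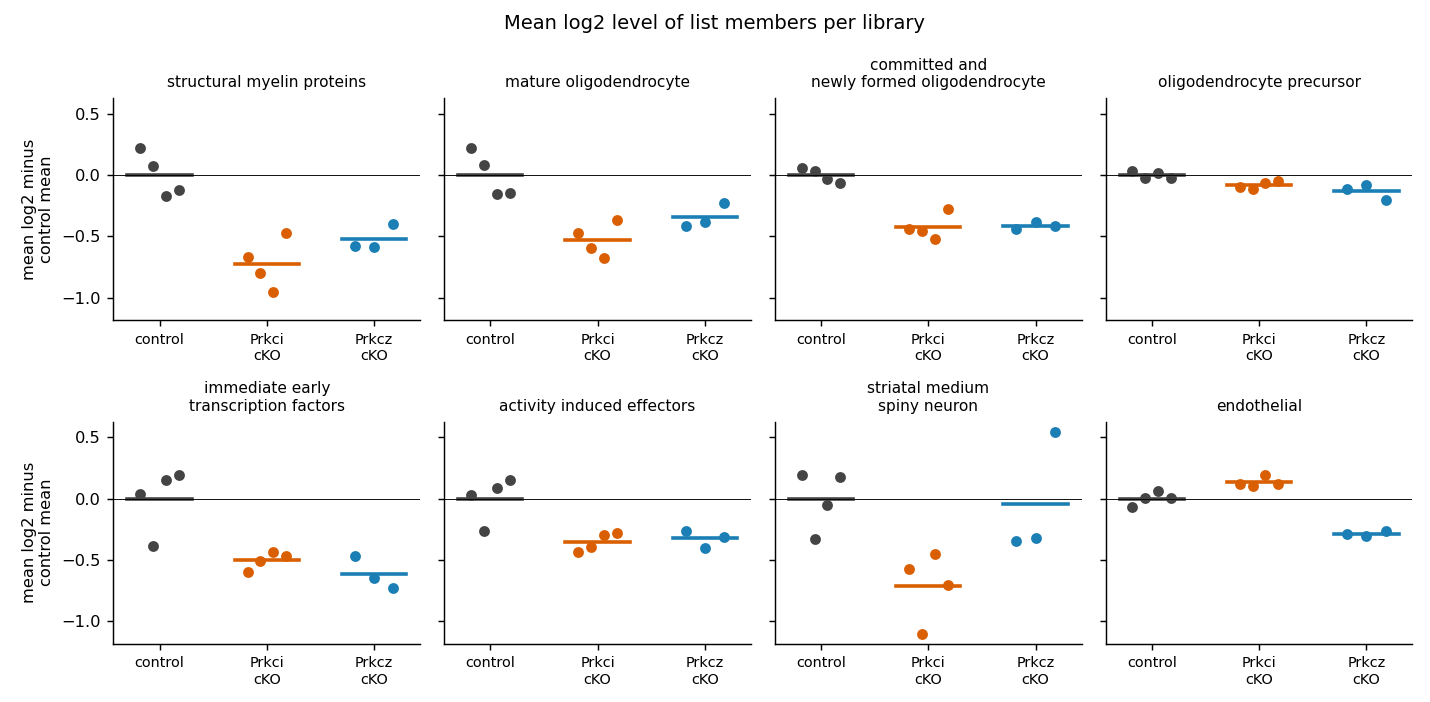
Mean log2 level of the tested members of 8 gene lists in each library, minus the control mean (points), with group means (bars). The 3 differentiated oligodendrocyte lists and the immediate early list lie lower in all 7 knockout libraries than in any control. So do, by narrow margins, the precursor list (highest knockout -0.05, lowest control -0.03) and the effector list (-0.2609 and -0.2602). The striatal list overlaps, and the endothelial list lies above controls in Prkci cKO and below them in Prkcz cKO.

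A second group of genes called lower belongs to the response to activity. Of 27 immediate early transcription factor genes tested, 11 were called lower and 0 higher, with a median of -0.42. Fos was 36.10, 18.60, 45.28 and 50.63 in controls, 10.90, 11.82, 15.24 and 11.78 in Prkci cKO, and 12.68, 5.96 and 6.10 in Prkcz cKO. All knockout libraries lay below the lowest control, replicate 2, and the change was -1.75 (SE 0.279, limma adjusted p = 0.00527). Npas4, an activity-dependent factor of neurons, was 15.31, 19.22, 28.83 and 24.50 in controls, 9.94, 10, 15.08 and 5.96 in Prkci cKO, and 8.34, 4.72 and 6.91 in Prkcz cKO. Prkci cKO replicate 3 lay just below the lowest control, and the change was -1.33 (SE 0.247, limma adjusted p = 0.0138).

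Junb, a partner of Fos in the AP-1 complex, was 56.22, 37.92, 62.80 and 58.13 in controls, 16.84, 22.66, 31.20 and 23.11 in Prkci cKO, and 27.62, 23.83 and 23.44 in Prkcz cKO, a change of -1.14 (SE 0.149, limma adjusted p = 0.00208). It overlaps Prdx2 on the other strand. Egr2 (-1.60), Nr4a1 (-1.28), Btg2 (-0.98), Ier2 (-0.89), Sik1 (-0.79), Csrnp1 (-0.67), Klf10 (-0.65) and Egr4 (-0.63) were the others called. Well known members of the same class were not called: Egr1 changed by -0.80 (adjusted p = 0.0945), Fosb by -0.58 (adjusted p = 0.263), Egr3 by -0.13 (adjusted p = 0.782) and Jun by -0.07 (adjusted p = 0.873). Klf6 alone of the 27 lay above 0 (0.23, adjusted p = 0.129).

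Effectors that activity induces include Arc, the gene with the largest decrease of those named by rule. Of 37 tested, 7 were called lower, 36 lay below 0 and the median was -0.21. Arc, which remodels synapses after activity, was 260.38, 107.62, 264.40 and 263.41 in controls, 29.61, 43.90, 62.36 and 80.99 in Prkci cKO, and 75.33, 41.93 and 39.69 in Prkcz cKO. Control replicate 2 lay apart from the other 3 controls and still above every knockout library. Arc changed by -2.05 (SE 0.287, limma adjusted p = 0.00303), a mean decrease to 53.4 ± 19.6 (SD, n = 7) from 224 ± 77.6 (SD, n = 4).

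Dusp1, a phosphatase that switches off MAP kinases, was 42.97, 24.51, 43.78 and 39.75 in controls, 12.06, 15.91, 18.54 and 20.98 in Prkci cKO, and 19.72, 18.12 and 16.53 in Prkcz cKO. The groups did not overlap, and the change was -1.08 (SE 0.159, limma adjusted p = 0.00347), in a gene whose annotation overlaps Ergic1. Cyr61, the matricellular factor now called Ccn1, changed by -1.19 (SE 0.233, adjusted p = 0.0196), and Arl4d (-0.78), Dusp6 (-0.58), Trib1 (-0.56) and Tiparp (-0.52) were also called. Bdnf changed by -0.18 (adjusted p = 0.459) and Homer1 by -0.12 (adjusted p = 0.772), without a call.

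Control replicate 2 was low across both activity lists, and single libraries set how many genes passed. On the mean level of the immediate early list, controls 1 to 4 stood at 0.04, -0.39, 0.16 and 0.19, and the knockout libraries ran from -0.72 to -0.44. Without control replicate 2, 13 of the 27 were called. The count was 7 without control replicate 1, 5 without replicate 3 and 4 without replicate 4, and 7, 6 and 7 without Prkci cKO replicates 1, 2 and 3. For the effectors, 7 fell to 3, 2 and 2 without control replicates 1, 3 and 4, to 3 and 4 without Prkci cKO replicates 1 and 2 and to 4 without Prkcz cKO replicate 2.

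The calls for Npas4, Cyr61 and Ier2 were lost without control replicate 3 (adjusted p of 0.0541, 0.0563 and 0.0518) and without control replicate 4 (0.0528, 0.0775 and 0.0558). That for Egr2 was lost without any one of 9 libraries (largest adjusted p 0.135, without control replicate 4). So was that for Trib1 (0.182, without control replicate 1), and that for Btg2 was lost without any one of 8 (0.171, without control replicate 4). With the Pkcz f/f controls only, 9 of 27 immediate early genes were called, with a median of -0.61, and 8 of 37 effectors.

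Part of the activity genes carry the letters of the cAMP response element before their start. TGACGTCA, which reads the same on both strands, was found in the 250 bases before the start of 331 of the 10955 tested genes with a RefSeq promoter (3.02%), in 6 of 135 genes called lower (4.44%), in 4 of 29 effectors (Dusp1, Plk2, Arl4d and Pcsk1), in 1 of 19 immediate early factors (Btg2) and in 0 of 16 structural myelin genes. The letters TGACTCA, of the AP-1 site, were found in 3.78% of all tested promoters and in 5.19% of those called lower, and CACGTG, an E-box, in 9.79% and 7.41%. CACGTG was also found in 8 of the 29 effectors (27.6%) and 4 of the 19 immediate early factors (21.1%). The CArG box of serum response factor was found in 1.41% of all tested promoters and in 6 of the 135 genes called lower (4.44%). A RefSeq promoter was at hand for 19 of 27 immediate early factors, 29 of 37 effectors and 16 of 20 structural myelin genes. The other members were not searched, so no absence of these letters is shown for them. A match describes letters and not a bound site. The 3 genes called lower in the activity lists that hold TGACGTCA are shown as 200 bases of RefSeq sequence (GRCm38.p6), read 5′ to 3′ along the gene's strand with those letters in capitals.
Dusp1, chr17:26508473-26508672, minus strand: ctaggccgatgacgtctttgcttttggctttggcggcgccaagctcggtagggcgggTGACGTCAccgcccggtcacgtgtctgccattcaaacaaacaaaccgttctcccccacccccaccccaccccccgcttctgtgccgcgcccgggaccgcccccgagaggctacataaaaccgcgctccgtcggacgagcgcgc
Arl4d, chr11:101665341-101665540, plus strand: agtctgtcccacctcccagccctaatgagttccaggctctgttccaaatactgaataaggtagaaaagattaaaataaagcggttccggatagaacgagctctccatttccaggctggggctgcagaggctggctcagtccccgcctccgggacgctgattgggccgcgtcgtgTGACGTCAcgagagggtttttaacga
Btg2, chr1:134079156-134079355, minus strand: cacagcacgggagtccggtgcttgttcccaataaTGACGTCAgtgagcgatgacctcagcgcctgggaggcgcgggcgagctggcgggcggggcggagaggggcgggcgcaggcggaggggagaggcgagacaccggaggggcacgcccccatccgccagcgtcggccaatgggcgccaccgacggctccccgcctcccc
The capitals begin 143 bases before the start in Dusp1, 26 in Arl4d and 166 in Btg2.

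Markers of the other cells of the cortex were mostly not called. Among 22 pericyte and smooth muscle genes, Mcam (CD146), an adhesion molecule, was called and the median was -0.14. Taken singly, the median of this list was 0.00 in Prkci cKO and -0.28 in Prkcz cKO. Mcam was 36.27, 30.99, 26.08 and 27.67 in controls, 15.89, 15.11, 13.59 and 20.12 in Prkci cKO, and 17.13, 20.22 and 18.90 in Prkcz cKO, with no overlap and a change of -0.79 (SE 0.113, limma adjusted p = 0.00312). Of 30 astrocyte genes, Gfap was called, at 137 ± 11.1 (SD, n = 4) in controls and 109 ± 10.5 (SD, n = 7) in knockouts (-0.34, limma adjusted p = 0.0376), a call lost without any one of 8 libraries (largest adjusted p 0.152, without control replicate 2). It was also the 1 gene called of 19 in the list for reactive astrocytes and intermediate filaments, whose median was -0.02. None of 27 microglial, 28 interferon response, 30 cortical excitatory neuron, 29 interneuron, 25 cell cycle, 23 fibroblast or 24 choroid plexus genes was called by limma in either direction, with medians of -0.00, -0.01, 0.03, 0.04, 0.07, 0.10 and 0.31. At an unadjusted p under 0.05, which 1562 of all genes tested passed, 3, 0, 7, 0, 1, 0 and 1 of them would have passed. The choroid plexus median became -0.11 and the fibroblast median -0.12 without control replicate 1. The interferon median was 0.13 in Prkci cKO and -0.13 in Prkcz cKO. Between the knockouts, 11 of its 28 genes were higher in Prkci cKO at an unadjusted p under 0.05, and 0 were called by limma. The share of all genes at that unadjusted p between the knockouts was not computed, so the 11 cannot be read as particular to this list.

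Striatal genes lay mostly below 0 without passing the test. None of the 28 medium spiny neuron genes was called by limma (5 at an unadjusted p under 0.05), but 27 lay below 0 and the median was -0.43, beside -0.00 over all genes. Their mean level in controls ran from -0.33 to 0.20, in Prkci cKO from -1.10 to -0.45 and in Prkcz cKO from -0.35 to 0.55. Drd2 was 14.8 ± 4.62 (SD, n = 4) in controls and 8.86 ± 7.78 (SD, n = 7) in knockouts. The low libraries were those of Prkci cKO, and without Prkcz cKO replicate 3, the highest of all, 5 of the 28 were called lower. With this score as a covariate, Gpr17 (-0.76, limma adjusted p = 5.39e-06), Ermn (-0.79, adjusted p = 0.00751) and Arc (-2.01, adjusted p = 0.00915) were still called, and Mbp (-0.85, adjusted p = 0.0547) was not.

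Other lists, among them those tied to the kinases or to the myelinated axon, held 0 to 3 called genes each, where 1.26% of all genes were called lower. Of 29 genes of the node of Ranvier and paranode, 3 were called lower (10 lower at an unadjusted p under 0.05). Among the 3 were Ermn and Nfasc, the neurofascin gene, whose glial form holds the paranode and whose neuronal form marks the node. Nfasc was 486 ± 32.6 (SD, n = 4) in controls and 370 ± 25.7 (SD, n = 7) in knockouts (-0.39, SE 0.058, limma adjusted p = 0.00358), and reads of its isoforms cannot be told apart here. Of 31 genes of the atypical PKC and polarity complexes, 0 were called (5 at an unadjusted p under 0.05) and the median was -0.06. Of 29 Hippo pathway and YAP target genes, Cyr61 and Amotl2 (-0.45, adjusted p = 0.00884) were called; without control replicate 1 the adjusted p of Amotl2 was 0.0505. Ddit4, a stress-induced brake on mTOR, was the 1 gene called of 23 glucocorticoid-responsive genes (-0.44, adjusted p = 0.0163), lost without control replicate 1, 3 or 4 (0.0565, 0.0518 and 0.0623). Cryab, a small heat shock protein of oligodendrocytes, was the 1 of 25 heat shock genes (-0.33, adjusted p = 0.0304), lost without any one of 5 libraries (largest adjusted p 0.126, without control replicate 1).

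Beside the floxed genes, Cldn11 was called among 8 neighbours of Prkci and Tmem88b (-0.81, adjusted p = 0.007) among 28 neighbours of Prkcz. Both also stand in the oligodendrocyte lists. In the remaining lists, 0 of 25 endoplasmic reticulum chaperone, 22 circadian clock, 31 secretory granule, 19 hippocampus and thalamus and 8 blood genes were called by limma (0, 5, 1, 3 and 0 at an unadjusted p under 0.05), with medians of -0.05, 0.03, 0.02, -0.01 and -0.11. With the Pkcz f/f controls only, 3 of the 25 chaperone genes were called lower (14 lower at an unadjusted p under 0.05) and their median was -0.146. Of the 25 heat shock genes, 1 was called lower with those controls (14 lower at an unadjusted p under 0.05), with a median of -0.165. Without the share of all genes at that unadjusted p, neither count of 14 can be read as particular to its list.

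Many genes called lower were in no list. The 15 with the smallest p, chosen after their values were seen, had log2 changes from -0.81 to -0.30 and no overlap between knockouts and controls. Lpar1, a lysophosphatidic acid receptor gene of oligodendrocytes, was 58.32, 51.95, 44.36 and 50.45 in controls, 29.28, 26.13, 24.73 and 32.23 in Prkci cKO, and 28.55, 28.51 and 33.80 in Prkcz cKO (-0.81, SE 0.086, limma adjusted p = 7.08e-04). Sema4d, a semaphorin gene, was 84.1 ± 4.18 (SD, n = 4) in controls and 66.0 ± 2.19 (SD, n = 7) in knockouts (-0.35, SE 0.042, limma adjusted p = 0.002). Serinc5, a serine incorporator of myelin-forming cells (-0.49), the chloride channel gene Clic4 (-0.48), the hedgehog inhibitor gene Hhip (-0.73) and the peptidylarginine deiminase gene Padi2 (-0.48) belong to the same 15.

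Few of the genes called by pooling differed between the knockouts, and the pooled fit favours such genes, since a difference between the knockouts stays in its residual spread. Of the 188, 1 (Arhgef19) also differed between Prkci cKO and Prkcz cKO, a contrast that uses no control library and that called 43 genes (0.3%) in all. For Arc the difference between the knockouts was 0.02 with a 95% interval of -0.75 to 0.78, for Mbp 0.02 (-0.46 to 0.50), for Car2 0.00 (-0.13 to 0.14) and for Gpr17 0.17 (0.03 to 0.32). The intervals of Arc and Mbp are wide, and a difference of either sign within them was not detectable with these libraries. Over the structural myelin list the median change was -0.83 in Prkci cKO and -0.61 in Prkcz cKO, 2 values that share the controls. Between the knockouts, 0 of the 20 genes were called by limma, with 8 lower in Prkci cKO at an unadjusted p under 0.05. The share of all genes at that unadjusted p in this contrast was not computed.

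Pooling itself brought in some genes. Of the 188, 27 were called in neither knockout taken singly against the same controls, among them Mbp (-0.81, adjusted p = 0.075 in Prkci cKO and -0.83, adjusted p = 0.114 in Prkcz cKO), Egr2 and Trib1. The others named by rule were Btg2, Plekhb1 (-0.59), a pleckstrin-domain protein gene, Utp14b (-0.47), which overlaps Acsl3 on the same strand, Micall1 (-0.39) and Foxn3 (-0.36). The calls of Plekhb1, Utp14b, Micall1 and Foxn3 were lost without any one of 7, 11, 6 and 4 libraries, with the largest adjusted p of 0.141, 0.163, 0.151 and 0.0962, reached without control replicate 1 for all but Micall1 and without control replicate 2 for that gene. At a call in both single contrasts in the same direction, 60 genes passed, 57 of them lower.

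Some genes differed between the knockouts with a pooled change near 0. Of the 43 genes that differed between the knockouts, 34 were higher (0.237% of genes tested) and 9 lower (0.0628%) in Prkci cKO, and in 38 the control mean lay between the knockout means. Flt1, a VEGF receptor gene of endothelium, was 39.29, 39.60, 45.77 and 39.50 in controls, 48.24, 43.19, 47.80 and 46.64 in Prkci cKO, and 30.50, 29.53 and 26.28 in Prkcz cKO. Prkcz cKO lay below every control, while Prkci cKO overlapped control replicate 3, and the pooled change was -0.11 (limma adjusted p = 0.871) beside a difference between the knockouts of 0.68 (adjusted p = 0.0014). Kdr, the other VEGF receptor gene, had a pooled change of -0.07 and a difference of 0.92 (adjusted p = 0.0084), and Ltbp4, Cxcl12, Nes and Rgs5 had pooled changes between -0.13 and 0.11. These 6 genes were named because they differ between the knockouts and lie on opposite sides of the control mean, and none of the 6 was called against controls in both knockouts. Of 35 endothelial genes, 0 were called in the pooled comparison (1 at an unadjusted p under 0.05) and 11 between the knockouts. The count of 43 depended on single libraries: it was 10 without Prkci cKO replicate 1, 14 without replicate 2, 19 without replicate 4, 152 without Prkcz cKO replicate 1 and 16 without Prkcz cKO replicate 3.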

How the data were processed

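The data were 11 bulk RNA-seq libraries of mouse cortex. Per the submitters' processing notes, FastQC, Trim Galore, STAR, RSEM and edgeR were used with GRCm38; the sources used here give no versions, annotation or strandedness. One table was deposited by the authors, a normalised expression signal per gene with 2 decimals. Columns sum to 1021767 to 1082562, close to CPM but above it; no source used here gives the scaling, and the depths in reads assume a scale close to CPM. Per library, 86.3% to 89.8% of the values below 0.5 sat on a step (tolerance 0.005), so whole reads were not recovered and no count test was run.

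Genes reaching 1 in 3 or more libraries were fitted as log2(value + 0.5), which understates changes of low genes, with limma 3.58.1 in R 4.3.3 (variance trend, two-sided, Benjamini-Hochberg over 14330 genes). The pooled fit had 2 groups and 9 residual degrees of freedom, and the contrast between the knockouts came from a fit of 3 groups. The script was tested on simulated data. Replicates are described as biological. The 36 gene lists, the members and the comparison were chosen with earlier results of these data known, and lists were counted and not tested as sets. Genes were named by rule: Prkci, Prkcz and Cspg4; the 12 largest changes in each direction among called genes without overlap and with a mean log2 of at least 2; up to 3 called members per list by smallest p, or 1 where none was called; up to 8 genes called only by pooling; up to 6 on opposite sides of the controls; and called neighbours of Cspg4. Other members are named to identify those counted. A few genes picked by it are left out of the text. Positions and strands come from GENCODE M21 on GRCm38 (15670 of 16228 symbols matched, older symbols through RefSeq).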

Additional observations from a re-analysis of the deposited data

Results flagged for a closer look

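In 7 of 225 checks of a gene within a group, 1 library lay apart from the others of its group, where chance gives about 1 in 20. Arc was 107.6 in control replicate 2 and 260.4 to 264.4 in the other controls. Dock10 was 55.00 in control replicate 1 and 43.60 to 44.61 in the others, and Flt1 was 45.77 in control replicate 3 and 39.29 to 39.60 in the others. Among the 7 knockout libraries, Cyr61 was 4.10 in Prkci cKO replicate 3 and 2.57 to 3.02 in the others, Amotl2 was 18.06 in Prkcz cKO replicate 1 and 13.81 to 15.63 in the others, and Bpgm, a red cell glycolytic enzyme gene, was 63.87 in Prkcz cKO replicate 3 and 57.07 to 59.75 in the others. Within Prkci cKO, the ribosomal gene Rpl3 was 417.7 in replicate 1 and 368.2 to 372.3 in the others.

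For 7 named genes the effect differed between Prkci cKO and Prkcz cKO by limma's contrast of the knockouts. Apart from Prkci, they were named because they were called in that same contrast, so this restates how they were chosen. Prkci, the gene floxed in one of them, differed by -0.36 (adjusted p = 0.0089). The vascular genes Flt1 (0.68, adjusted p = 0.0014), Kdr (0.92, adjusted p = 0.0084) and Cxcl12 (0.49, adjusted p = 0.0089), the matrix gene Ltbp4 (0.54, adjusted p = 0.00392), the intermediate filament gene Nes (0.86, adjusted p = 0.0089) and the pericyte gene Rgs5 (0.44, adjusted p = 0.0089) were higher in Prkci cKO.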

How the results depend on the processing

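The count of 188 ran from 160 to 189 over other pseudocounts, filters and scalings, was 134 without a variance trend and 171 with robust estimation. Array weights gave 229 (12 higher), and the mean of both knockout coefficients 228 (11 higher). Calls in both single contrasts numbered 60 (3 higher, 57 lower). The Pkcz f/f controls alone gave 45 (10 higher, 35 lower), of which 31 were among the 188; fewer controls enter that fit. The immediate early score as a covariate gave 2 (1 higher, 1 lower) and turned the changes of Egr2 and Trib1 to 0.348 and 0.0401; that score does not overlap between the groups, so the fit cannot separate them. The striatal score gave 239, of which 41 were higher and 198 lower, and 129 were among the 188. Leaving out each library gave 91 (without control replicate 1) to 279 genes (without Prkcz cKO replicate 3), with 4 to 17 higher and 87 to 262 lower. The count of 43 between the knockouts became 112 with array weights and 10 to 152 without single libraries; causes were not tested. Nothing in the labels says that the replicate numbers pair the samples. Deviations of same-numbered libraries correlated at -0.186 to 0.196 over 10 pairs, 5 of them above 0.1 beside 4 of 30 other pairs, and 12 of 20 best partners had the same number, a hint of pairing from the data and not from the design. With the replicate number as a block, 139 genes were called against controls and 73 between the knockouts, and 44 of 50 called genes named by rule kept their call, beside 17 with the Pkcz f/f controls alone, 26 in both single contrasts, and 34 to 48 without single libraries. Depth limits values near 1, as it adds counting error that the deposited unit does not show.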

Other observations

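Genes for the nuclear-encoded subunits of the respiratory chain and for ribosomal proteins lay slightly above 0 in the pooled comparison. Of 77 nuclear oxidative phosphorylation genes, 76 had a log2 change above 0, with a median of 0.08, and 0 were called by limma (16 at an unadjusted p under 0.05). The largest change was that of Uqcrq, a subunit of complex III, at 50.97, 46.35, 50.85 and 46.39 in controls, 62.34, 52.92, 48.69 and 59.09 in Prkci cKO, and 57.39, 53.76 and 56.15 in Prkcz cKO (0.19, SE 0.062, limma adjusted p = 0.207), with overlapping groups. The median stayed between 0.07 and 0.10 when each library was left out. Of 77 cytoplasmic ribosomal protein genes, 0 were called (0 also at an unadjusted p under 0.05) and the median was 0.06, with a range of 0.01 to 0.09 when each library was left out. The median was 0.10 in Prkci cKO and -0.00 in Prkcz cKO. The mean level of these genes overlapped between knockouts and controls and was highest in Prkci cKO replicate 1 (0.34). Scg5, a chaperone gene of secretory granules, was higher in all 7 knockout libraries than in any control without being called (0.25, adjusted p = 0.0766). Plk1, a mitotic kinase gene, changed by 0.72 at values of 0.31 to 1.69 (adjusted p = 0.0771). It reached 1 in knockout libraries alone, so its direction was fixed by the filter on low values.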
